A study of Capra hircus with 4 samples.

Results

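The genes described here are 9 members of the p53 pathway in goat, namely the p53 family transcription factor TP63 and the p53-linked genes MDM2, TP53I11, TP53INP1, SESN1, SESN2, GADD45A, BTG2 and ZMAT3. They were chosen by name, with earlier results of these data known, and each matched 1 of the 20326 genes in every deposited table. RNA came from secondary hair follicle stem cells, grown in culture after isolation from the back skin of cashmere goats (Capra hircus). Secondary follicles produce the fine undercoat. The 4 libraries form 2 groups. Early anagen, the start of the growth phase, was sampled in April, and mid anagen was sampled in October. A group consists of 1 female plus 1 male library, and the labels name these as biological replicates. Neither a treatment nor a genetic change is given for any library. Ages are not given. Month and phase change together, so they cannot be told apart.

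The p53 protein is a transcription factor that is stabilised by DNA damage and other stress and then switches on genes for cell cycle arrest, repair, metabolism and cell death. MDM2 marks p53 for destruction and is itself induced by it, which closes a feedback loop. p63, encoded by TP63, binds similar DNA sites, but its main role in skin is to maintain the basal, proliferating layer of stratified epithelia and the progenitors of skin appendages. Many genes named for p53 also respond to other signals, so their RNA level alone does not measure p53 activity.

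All values below are deposited abundances per gene, treated as length-normalised, with totals between 844960 and 1186966 per library. The number of reads behind them is not known, which leaves counting error without an estimate. Where 2 values stand for a phase, the female library comes first. The labelled cell type was checked on its markers. The 6 basal keratinocyte markers summed to 39222 (female) and 43952 (male) in April, against 19234 and 20284 in October. KRT14 and KRT5 made up most of these sums. Both were lower in both mid libraries, as was ITGB4, while COL17A1, ITGA6 and DST overlapped between phases and none of the 6 was called. The 8 bulge stem cell markers found by symbol summed to 122 and 95.4 in April and to 216 and 243 in October. SOX9, which was not called (limma adjusted p = 0.0839), made up most of these sums, at 101 and 82.5 in April and 150 and 171 in October. Of these 8, CD34 and LGR6 stayed under 1 in every library. Fibroblast markers were nearly absent early and present at mid anagen, with sums of 4.59 and 7.13 in April and 329 and 143 in October. The endothelial sum was under 1 in every library, with CDH5 at 0 throughout. The 6 melanocyte markers summed to between 5.8 and 7.17, of which MITF and PMEL made up most, and DCT was at 0. The 5 immune markers summed to 8.1 and 6.13 in April and 17.8 and 11.4 in October. Among them PTPRC was at 0, CD68 overlapped between phases, and CD14 was at 3.28 and 2.49 in April and 12.6 and 8.52 in October. Smooth muscle and pericyte markers, mainly ACTA2, summed to between 44.4 and 61.9, with overlap. The 5 differentiated keratinocyte markers found by symbol summed to 305 and 200 in April and to 209 and 82.4 in October. IVL made up most of these sums, at 205 and 157 in April and 126 and 55.9 in October. The others overlapped between phases, and none of the 5 was called. In such bulk samples a change in the share of a cell type and a change in RNA per cell cannot be told apart.

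Of the 9 genes, TP53I11 rose at mid anagen, and the other 8 did not pass the test. The test was limma on log2(abundance + 1) over 12486 genes with Benjamini-Hochberg adjustment at 0.05, which called 0.304% of all tested genes, 0.224% as higher and 0.0801% as lower at mid anagen. As deposited, 73.7% of the 38 calls were higher. After each library was rescaled to a common total 87.2% of 648 calls were higher. All 9 genes passed the filter on low values, and all 9 reached at least 1 in every library. Because the 9 were chosen with earlier results of these data known, the shares over all tested genes are a background and not a test. In 7 of the 9, both mid libraries lay above both early libraries, against 31.5% of all tested genes. None of the 9 lay below in both mid libraries, against 30.9% of all tested genes. After that rescaling the count was again 7 of 9, but the background was then 57.2%. TP53I11, TP53INP1 and ZMAT3, 3 of the 9, were called higher on the rescaled values, where 4.53% of all tested genes were. The median log2 fold change of the 9 was 0.37, beside 0.01 over all tested genes, and it was 0.62 beside 0.32 after the rescaling, which moved the median of all genes by 0.31.

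**Figure D1:**
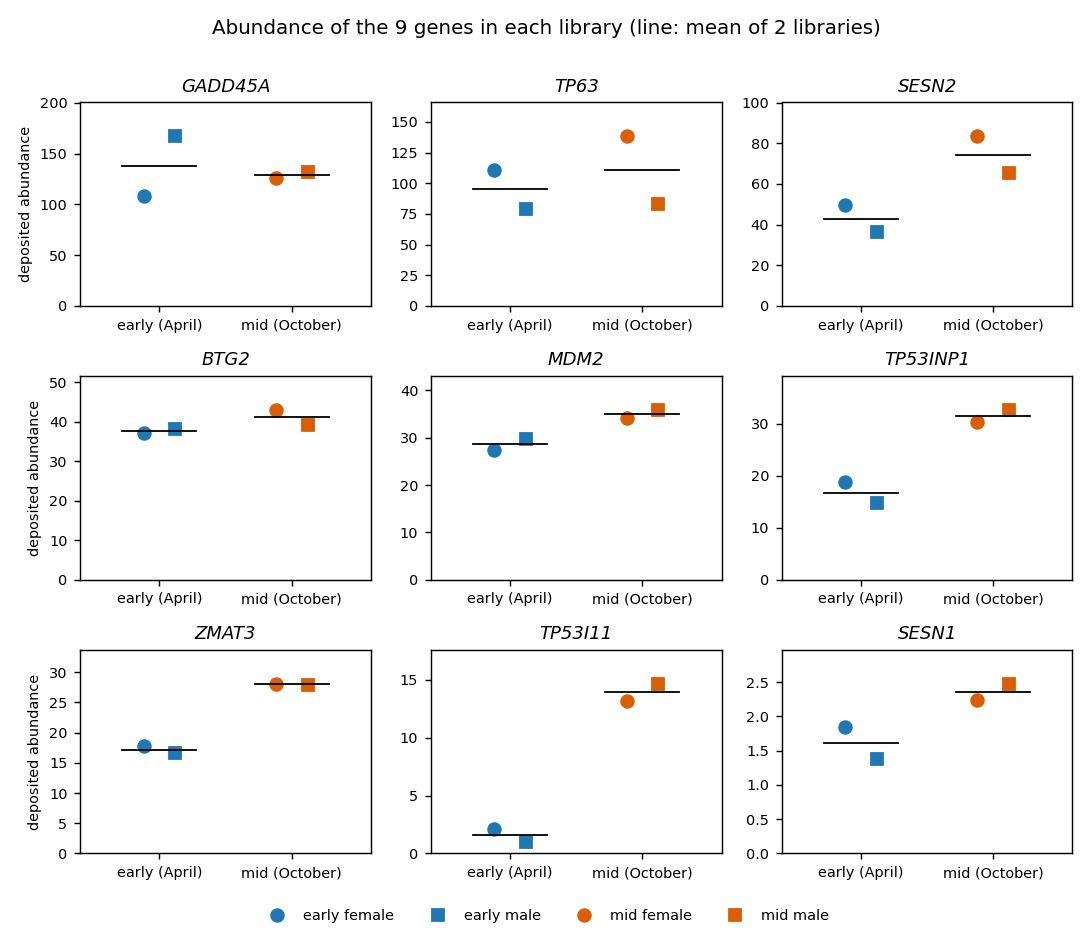
Deposited abundance (vertical axis, from 0, a separate scale per gene) of each gene in the early (April, blue) and mid anagen (October, orange) libraries, with circles for female, squares for male and a line at the mean of the 2 libraries. TP53I11 goes from 2.15 and 1.03 to 13.2 and 14.7, while the early and mid libraries overlap for TP63 and GADD45A.

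TP63 was among the most abundant of the 9 genes. It (GeneID 102190550) was at 111 (female) and 78.9 (male) in April, against 138 (female) and 83.2 (male) in October. The phases overlap, and the female library was the higher of the pair in each phase. From early to mid anagen the log2 fold change was 0.20 (SE 0.30, 95% interval -0.56 to 0.95, limma adjusted p = 0.707). Its sign turned in 3 settings, with -0.05 without the early male library, -0.17 without the mid female library and -0.13 with the trend of abundance with genomic span removed. RefSeq lists 9 transcripts for TP63 in the ARS1.2 goat assembly. The deposited value is 1 per gene, so the long and the amino-terminally truncated p63 forms, which act differently in skin, are not separated.

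TP73, a relative of TP63, was not called. It was far less abundant, at 9.13 (female) and 5.06 (male) in April and 8.34 (female) and 5.72 (male) in October. The phases overlap, and the log2 fold change was 0.02 (SE 0.30, limma adjusted p = 0.976). The sign for TP73 turned without the early male library (-0.35), without the mid female library (-0.22) and with the span trend removed (-0.07). TP63 held between 92.4% and 94.3% of the summed abundance of the 2 genes in the 4 libraries.

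MDM2, the ubiquitin ligase that limits p53, differed little between phases. It (GeneID 102173163) was at 27.5 (female) and 29.6 (male) in April, against 34.1 (female) and 35.9 (male) in October. Both mid libraries were above both early ones, with close agreement within each phase. Its log2 fold change was 0.28 (SE 0.14, 95% interval -0.07 to 0.63, limma adjusted p = 0.248), so the difference did not pass. MDM4, which restrains p53 without destroying it, was at 12.7 and 10.9 in April and 12.8 and 12.2 in October, and its phases overlap (log2 fold change 0.08, SE 0.15, adjusted p = 0.759). For MDM4 the sign turned without the early male library (-0.02) and with the span trend removed (-0.01). MDM2 made up between 68.4% and 74.6% of the summed abundance of MDM2 and MDM4.

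TP53I11, a p53-inducible gene whose function is less well known, had the largest difference of the 9. It (GeneID 102190055) was at 2.15 (female) and 1.03 (male) in April, against 13.2 (female) and 14.7 (male) in October. The mid libraries stand far above the early ones and close to each other. The ratio of the phase means was 8.76, and the log2 fold change was 2.56 (SE 0.25, 95% interval 1.93 to 3.18, limma adjusted p = 0.0431, n = 2 per phase, higher in both pairs). Within the sexes it was 2.17 for the females and 2.95 for the males. The call ended without the early female library (adjusted p = 0.0657), without the early male library (0.197), with a pseudocount of 0.1 (0.0616) and without the filter on low values (0.105). The log2 fold change in these settings lay between 2.24 and 3.13, and over all 11 alternatives the adjusted p ran from 0.00504 to 0.197.

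The rise of TP53I11 accompanied changes in markers of cell types. All 13 fibroblast markers were higher in both mid libraries than in both early ones, and 3 of them were called. PDGFRA and PDGFRB were too low to be tested. Most of the others, the called FBN1 among them, passed the filter on low values only through the mid libraries, which fixed their direction. The called COL5A1 and FN1 reached 1 in an early library. The shares of 31.5% and 0.304% over all tested genes are therefore no like comparison for this list. The sum of the 13 markers in the mid female was above that in the mid male library (329 against 143), whereas TP53I11 was at 13.2 and 14.7. FN1, the gene for fibronectin, was at 0.247 and 1.1 in April and 92.0 and 61.7 in October. The fibroblast receptors were low, with PDGFRA under 1 in every library and PDGFRB at most at 1.53. All 8 bulge markers were also higher in both mid libraries, against 31.5% of all tested genes, although CD34 and LGR6 were too low to be tested. Of the 8, 1 was called, against 0.304% of all tested genes. This was LHX2, a stem cell transcription factor, at 9.54 and 6.94 in April and 31.7 and 32.1 in October (limma adjusted p = 0.0431). The part of either cell type in the TP53I11 result was not tested.

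**Figure D2:**
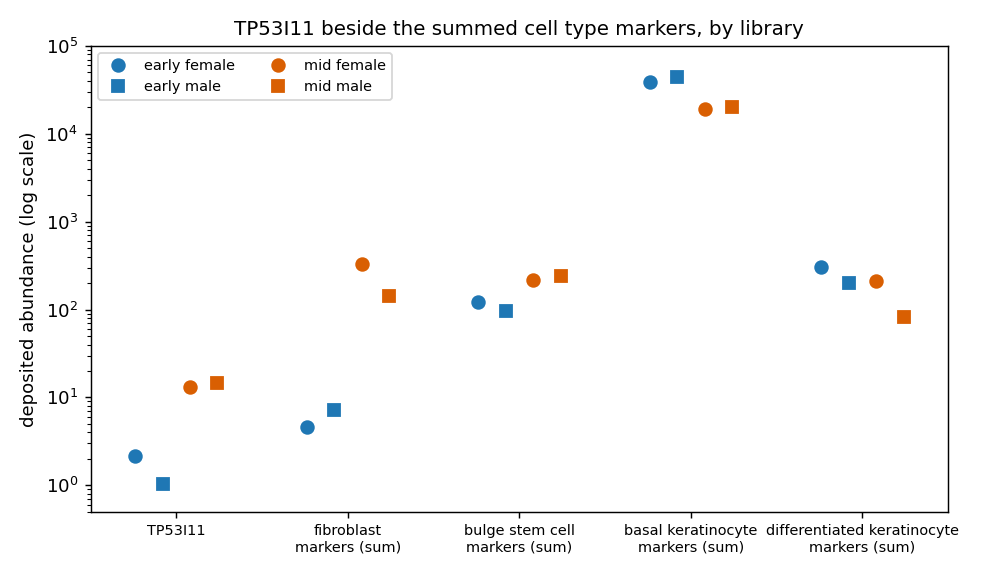
Abundance of TP53I11 and summed abundance of 4 lists of cell type markers in each library (log axis), with circles for female, squares for male, blue for early and orange for mid anagen. TP53I11, the fibroblast sum and the bulge stem cell sum are higher in both mid libraries, the basal keratinocyte sum is lower, and the differentiated keratinocyte sum overlaps.

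TP53INP1, a stress-induced nuclear protein that promotes p53 activity and autophagy, was higher in both mid libraries without passing. It (GeneID 102184356) was at 18.7 (female) and 14.6 (male) in April, against 30.3 (female) and 32.6 (male) in October. The groups do not overlap, and the ratio of the phase means was 1.88. The log2 fold change was 0.88 (SE 0.17, 95% interval 0.46 to 1.31, limma adjusted p = 0.0752). TP53INP2, its paralog with a role in autophagy and transcription, was at 20.4 and 20.3 in April and 29.9 and 48.8 in October (log2 fold change 0.88, SE 0.25, adjusted p = 0.107). It passed without the mid female library (adjusted p = 0.0238), where 2.65% of all tested genes were called higher. TP53INP1 made up 47.8% and 41.9% of the sum of the 2 genes in the early libraries and 50.3% and 40.1% in the mid libraries.

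The sestrins are stress-induced proteins that restrain the growth kinase mTORC1 and protect against oxidative damage. SESN2 (GeneID 102175632), which is induced by p53 and also by amino acid and endoplasmic reticulum stress, was at 49.7 (female) and 36.1 (male) in April, against 83.4 (female) and 65.4 (male) in October. Both mid libraries lay above both early ones, and the female library was the higher in each phase. The log2 fold change was 0.79 (SE 0.22, 95% interval 0.23 to 1.34, limma adjusted p = 0.105), with 0.74 in the female and 0.84 in the male pair. SESN1 (GeneID 102187135), the sestrin most closely tied to p53, had the lowest mean of the 9 genes over the 4 libraries, at 1.84 and 1.38 in April and 2.25 and 2.48 in October. In the early male library TP53I11 was lower still. The log2 fold change of 0.37 for SESN1 (SE 0.20, 95% interval -0.14 to 0.87, adjusted p = 0.287) understates the difference, since the value 1 was added before the logarithm, and the ratio of the means was 1.47.

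SESN3, the remaining sestrin and a known target of FOXO factors, had the largest difference in its family. It was at 13.0 (female) and 4.19 (male) in April, against 38.7 (female) and 33.4 (male) in October. In ratio, the early libraries differ about as much from each other as the early female does from the mid libraries, and the log2 fold change of 2.12 (SE 0.46) did not pass (limma adjusted p = 0.0808). It was 2.83 without the early female and 1.41 without the early male library (adjusted p = 0.0657 and 0.283). After rescaling to a common total SESN3 was called, at 2.43 (adjusted p = 0.0468). SESN2 made up 77.1% and 86.6% of the summed sestrin abundance in the early libraries and 67.1% and 64.6% in the mid libraries. The share of SESN3 was 20.1% in the early female and lower in the early male library, and 31.1% and 33.0% at mid anagen. Summed over the 3 sestrins, abundance was 64.5 and 41.7 in April and 124 and 101 in October.

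GADD45A, a growth arrest and DNA damage protein that binds cell cycle factors and activates stress kinases, had the highest mean of the 9 over the 4 libraries, although TP63 exceeded it in both female libraries. It (GeneID 102179904) was at 109 (female) and 167 (male) in April, against 126 (female) and 132 (male) in October. Both mid values lie between the early ones. Its log2 fold change was -0.07 (SE 0.24, 95% interval -0.67 to 0.54, limma adjusted p = 0.879). Its sign turned without the early male library (0.24), after rescaling to a common total (0.27) and with the span trend removed (0.14). The female pair moved by 0.21 and the male pair by -0.34, and the difference between the pairs was not tested.

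The paralogs GADD45B and GADD45G, which share its stress kinase function, had lower means at mid anagen. GADD45B was at 11.8 and 23.7 in April and 6.91 and 13.1 in October, so its phases overlap (log2 fold change -0.75, SE 0.40, limma adjusted p = 0.282). GADD45G was at 5.78 and 11.8 in April and 3.63 and 4.76 in October, with no overlap (log2 fold change -0.85, SE 0.33, adjusted p = 0.17). In all 3 GADD45 genes the male library was above the female in each phase. GADD45A held from 82.5% to 92.3% of their summed abundance.

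BTG2, an antiproliferative protein that recruits the deadenylase complex to RNA, was nearly level. It (GeneID 102187789) was at 37.2 (female) and 38.1 (male) in April, against 43.0 (female) and 39.2 (male) in October. The phases do not overlap, but the gap between them is small. Its log2 fold change was 0.12 (SE 0.14, 95% interval -0.23 to 0.48, limma adjusted p = 0.607). BTG2 was a small part of its family, at 3.9% to 7.3% of the summed abundance of BTG1, BTG2, BTG3, TOB1 and TOB2. BTG1, the most abundant, was at 569 and 456 in April and 815 and 313 in October. Its female pair was higher and its male pair lower at mid anagen, so the phases overlap.

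ZMAT3, a zinc finger protein that binds RNA and is a direct p53 target, had close replicates and no overlap between phases. It (GeneID 102168942) was at 17.7 (female) and 16.6 (male) in April, against 28.1 (female) and 27.9 (male) in October. The log2 fold change was 0.68 (SE 0.14, 95% interval 0.33 to 1.02, limma adjusted p = 0.0771), with 0.64 for the females and 0.72 for the males. The ratio of the phase means was 1.63.

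**Figure D3:**
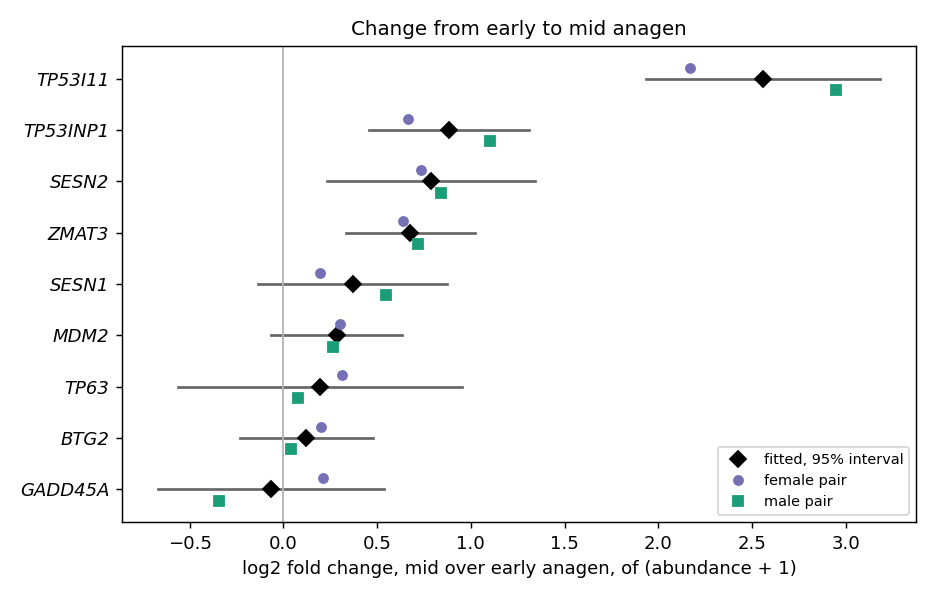
Log2 fold change of (abundance + 1), mid over early anagen, for each of the 9 genes (diamonds, with the 95% interval of the limma fit), with the change in the female pair (circles) and in the male pair (squares). Intervals of TP53I11, TP53INP1, SESN2 and ZMAT3 lie above 0 before adjustment, and GADD45A is the gene whose pairs lie on opposite sides of 0.

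At an unadjusted p under 0.05, 4 of the 9 genes were higher at mid anagen (TP53I11, TP53INP1, SESN2 and ZMAT3) and 0 lower, against 13.2% and 14.7% of all tested genes. Since the scaling shifts the median over all tested genes, the changes were also set against that median. Relative to it, TP53INP1 was at 0.87 as deposited and at 0.89 after rescaling to a common total, SESN2 at 0.78 and 0.80, and ZMAT3 at 0.67 and 0.68. TP53I11 was at 2.55 and 2.50. GADD45A was at -0.08 and -0.05 on the 2 scales, and TP63 at 0.18 and 0.21.

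Ordered by their mean over the 4 libraries, the genes ran from GADD45A (133) and TP63 (103) through SESN2 (58.7), BTG2 (39.4), MDM2 (31.8), TP53INP1 (24.1) and ZMAT3 (22.6) to TP53I11 (7.75) and SESN1 (1.99). Between neighbours in this order, the ranges over libraries overlap except between BTG2 and MDM2 and between ZMAT3 and TP53I11. GADD45A was above 92.3% of the tested genes, TP63 above 89.6% and SESN1 above 7.6%. In the RefSeq table of ARS1.2, 1 of the 9 genes, SESN2, overlaps another gene, a tRNA.

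**Figure D4:**
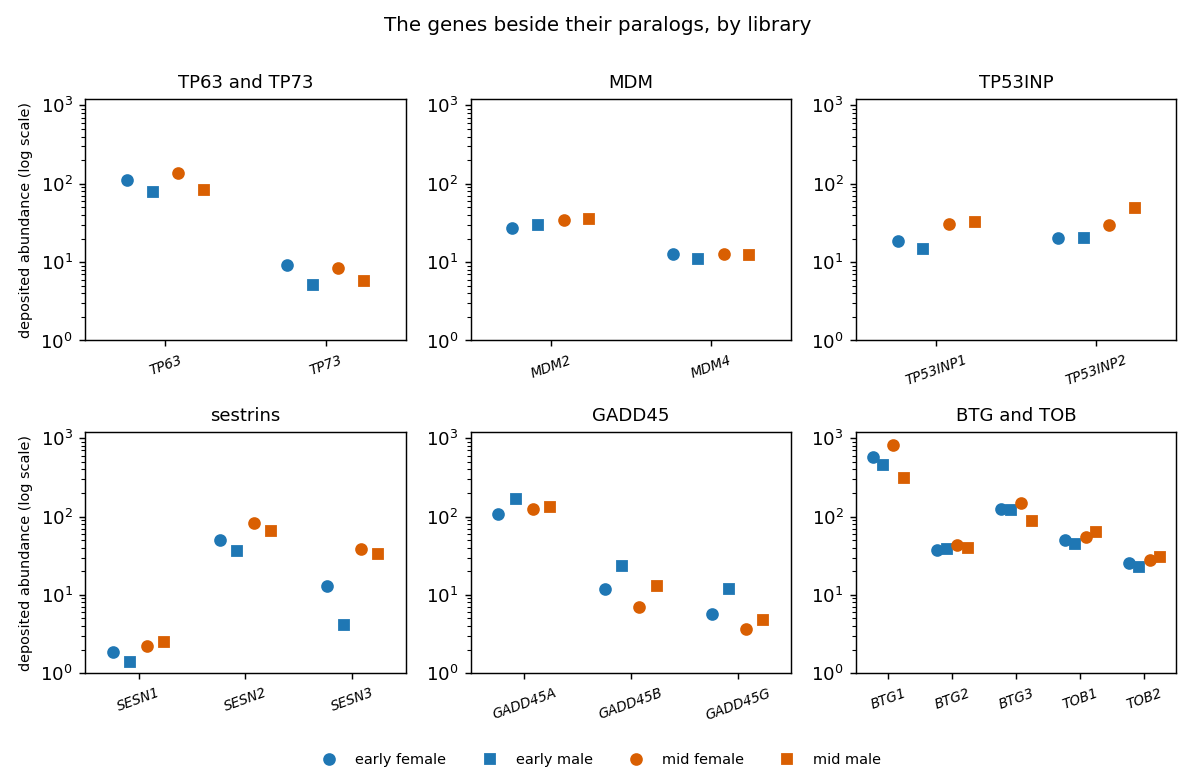
Abundance (log axis) of the genes and of their paralogs in each library, with circles for female, squares for male, blue for early and orange for mid anagen. SESN3 shows the widest separation between phases among the paralogs, from 13.0 and 4.19 to 38.7 and 33.4, while MDM4 stays nearly level.

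The wider pathway was read from lists, which were also chosen with earlier results of these data known. None of their 107 tested genes passed (limma, smallest adjusted p = 0.0724), and 36 had an unadjusted p under 0.05, against 27.9% of all tested genes. After rescaling to a common total 2 passed (SESN3 and SATB1), both higher, against 4.53%. Among regulators and partners of p53, 0 of 21 passed. At an unadjusted p under 0.05, 5 were higher and 3 lower, against 13.2% and 14.7% of all tested genes. In 7 of the 21 both mid libraries lay above both early ones and in 7 below, close to the 31.5% and 30.9% of all tested genes. The median log2 fold change was 0.05, and 0.39 after rescaling to a common total, beside 0.01 and 0.32 over all tested genes. CHEK1, the checkpoint kinase that answers stalled replication, was at 30.3 and 31.2 in April and 15.9 and 18.3 in October (log2 fold change -0.81, SE 0.15, adjusted p = 0.0724). CHEK2, its counterpart for strand breaks, was at 22.9 and 21.3 in April and 15.2 and 14.3 in October. The 2 checkpoint kinases were thus lower in both mid libraries. HIPK2, a kinase that phosphorylates p53, was at 3.31 and 2.69 in April and 5.86 and 5.38 in October, and the acetyltransferase EP300 was at 21.04 and 18.1 in April and 27.1 and 30.5 in October.

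Of 13 p53 targets in growth arrest 0 passed. At an unadjusted p under 0.05, 3 were higher and 1 lower, against 13.2% and 14.7% of all tested genes. The median log2 fold change was -0.01, and 0.33 after rescaling, beside 0.01 and 0.32 over all tested genes. CDKN1A, the cyclin-dependent kinase inhibitor p21 and the best known p53 target, was at 158 and 200 in April and 232 and 240 in October. Its libraries do not overlap, but the log2 fold change of 0.41 (SE 0.19) did not pass (limma adjusted p = 0.229). GDF15, a secreted stress cytokine, was at 33.2 and 15.5 in April and 81.8 and 45.5 in October (adjusted p = 0.122), and the kinase PLK3 at 56.3 and 36.5 in April and 80.6 and 66.6 in October (adjusted p = 0.153).

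Targets in cell death and those in repair and metabolism had medians below 0 as deposited. Among the 13 cell death targets 0 passed. At an unadjusted p under 0.05, 1 was higher and 3 lower, against 13.2% and 14.7% of all tested genes. The median of the 13 was -0.11, and 0.22 after rescaling to a common total, below the 0.01 and 0.32 over all tested genes. SIVA1, a proapoptotic protein, was at 145 and 186 in April and 76.5 and 78.1 in October (log2 fold change -1.08, SE 0.18, limma adjusted p = 0.0724). BBC3, the proapoptotic protein PUMA, was at 7.19 and 5.36 in April and 12.7 and 9.99 in October (adjusted p = 0.0978). The 2 genes thus lay in opposite directions. BID was at 66.2 and 68.0 in April and 47.8 and 48.7 in October, and AIFM2 at 67.6 and 53.3 in April and 38.4 and 45.8 in October. Among the 17 targets in repair and metabolism 0 passed. At an unadjusted p under 0.05, 0 were higher and 4 lower, against the same 13.2% and 14.7%. The median of the 17 was -0.22, and 0.03 after rescaling, beside the same 0.01 and 0.32. NDRG1, which also responds to low oxygen, was at 623 and 956 in April and 299 and 373 in October (adjusted p = 0.0851). The DNA damage recognition gene DDB2 was at 37.5 and 36.6 in April and 27.1 and 24.5 in October, and the bypass polymerase POLH was at 39.2 and 40.8 in April and 28.5 and 32.4 in October. RPS27L, a ribosomal protein paralog, was at 343 and 399 in April and 288 and 188 in October.

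Listed targets of p63 in keratinocytes showed no call on the deposited values. The list does not state which of them p63 raises or lowers. Of 28 tested, 0 passed. At an unadjusted p under 0.05, 3 were higher and 1 lower, against 13.2% and 14.7% of all tested genes. The median log2 fold change was -0.04, and 0.30 after rescaling, beside 0.01 and 0.32 over all tested genes. Both mid libraries lay above both early ones in 7 and below in 4, against 31.5% and 30.9% of all tested genes. After rescaling these were 11 and 2, against 57.2% and 12.7%. SATB1, a chromatin organiser, was at 0.463 and 0.57 in April and 2.25 and 2.73 in October (limma adjusted p = 0.0724, and 0.0454 after rescaling). Only its mid libraries brought it past the filter on low values, which fixed its direction. KRT14, the basal keratin, was at 20587 and 23511 in April and 9603 and 8956 in October (adjusted p = 0.155). TFAP2A, an epidermal transcription factor, was at 120 and 91.5 in April and 153 and 143 in October, and the ligand BMP7 at 1.76 and 3.68 in April and 4.81 and 5.48 in October. Of these, KRT14 was the gene with lower values at mid anagen.

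Cell cycle genes that p53 represses through p21 and the DREAM complex had the lowest median of the 7 lists. In 12 of 13 both mid libraries were below both early ones, against 30.9% of all tested genes. The list was chosen with earlier results of these data known, so such shares are a background and not a test. At an unadjusted p under 0.05, 11 were lower, against 14.7%. Adjusted over all genes 0 passed with the 4 libraries. Of the fits with a library left out, only that without the mid male library gave calls in this list. For the 4 genes named below, the mid male library was the higher of the mid pair. The mid female library then stands alone for its phase. Without the mid male library 9 of 13 passed, all lower, against 1.43% of all tested genes. The median log2 fold change was -0.93, and -0.59 after rescaling to a common total, where 8 of 13 did not overlap, against 12.7% of all tested genes on that scale. CCNB1, the mitotic cyclin, was at 208 and 245 in April and 84.4 and 110 in October (log2 fold change -1.22, SE 0.20, limma adjusted p = 0.0724). CDC20 was at 218 and 216 in April and 93.4 and 123 in October, CDK1 at 97.8 and 103 in April and 41.9 and 58.3 in October, and CCNB2 at 72.7 and 78.7 in April and 29.8 and 43.5 in October. The level of these genes also follows the share of cycling cells, and the part of p53 in it was not tested.

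**Figure D5:**
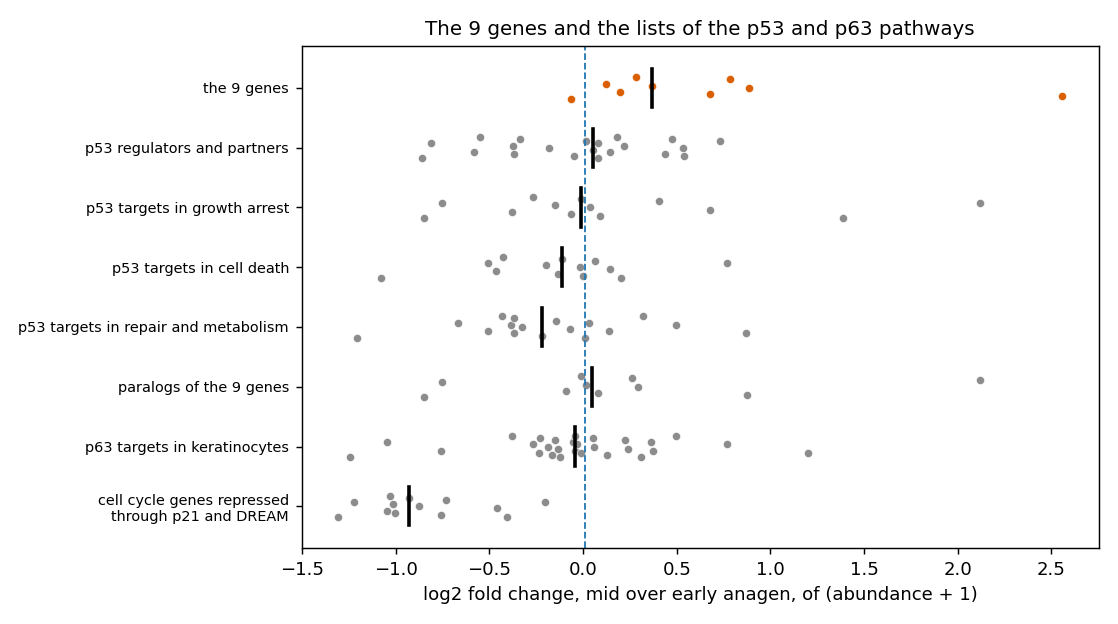
Log2 fold change of (abundance + 1), mid over early anagen, of the 9 genes (orange) and of each tested gene of the 7 pathway lists (grey), with a black bar at each median and a dashed line at the median of all tested genes (0.01). The 9 genes have a median of 0.37, the cell cycle list lies at -0.93, and the other lists centre near the dashed line or slightly below it.

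Between the sexes, 0 of the 9 genes were called in a fit with phase and sex (limma), and 0.144% of all tested genes were. At an unadjusted p under 0.05 there were 2 of the 9, against 1376 of the 12486 tested genes. TP63 was the gene with the largest difference, at -0.61 on the log2 scale, male minus female (SE 0.17, adjusted p = 0.273). SESN2 was at -0.40 (SE 0.16, adjusted p = 0.426). TP63, SESN2 and ZMAT3 were higher in the female library in each phase, and 28.1% of all tested genes had that order. There is 1 library per sex and phase, so sex and other differences between these libraries cannot be told apart.

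Genes with the most similar pattern were taken from 9435 tested genes with a symbol and a mean of at least 5, by the root mean square difference of centred log2 values over the 4 libraries. For TP63 these were DKK3, a secreted glycoprotein (difference 0.0352), MTFR1L (0.0358) and CMC4 (0.0372), each higher in the female library of each phase. DKK3 was at 22.3 and 16.2 in April and 27.0 and 16.3 in October. Among those for TP53I11 were the transcription factor TCF7L1 (0.119) and the chemokine CX3CL1 (0.138). CX3CL1 went from 2.21 and 1.35 to 14.2 and 13.0 (limma adjusted p = 0.0323). Its call ended in the same settings as that of TP53I11, with adjusted p up to 0.197. TCF7L1 was at 2.39 and 1.17 in April and 11.5 and 15.3 in October (adjusted p = 0.0551). Likeness over 4 libraries is a description only.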

How the data were processed

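Each library has 1 deposited file with 1 value per gene, a signal that behaves like TPM rescaled between libraries. The submitters' processing notes name kallisto 0.46.1 and sleuth 0.30.0. For build, annotation, strand setting and the merging of transcripts the entry is: not given in the sources used here. The extraction was a TRIzol method with an NEB Ultra RNA library kit, per the labels' protocols. Because build and coordinates are not given, no positions are printed. RefSeq's ARS1.2 table, which holds 20294 of the 20326 gene identifiers, served for spans, transcript numbers and overlaps.

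The scale of analysis was log2(value + 1). limma 3.58.1, run in R 4.3.3 with an intensity trend and phase as sole term, was fitted on genes with at least 1 in at least 2 libraries. The fold change understates the change of low genes. P-values were adjusted over all 12486 genes by Benjamini-Hochberg. P-values rest on the spread between 2 libraries per phase, which limma moderates towards that of genes of similar abundance. The 2 libraries of a phase differ in sex, so this spread includes any sex difference. Nothing says how the animals or cultures were separated. No 2 libraries held an equal value above 0 for any gene.

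The members and lists were chosen with earlier results of these data known. Named genes are the 9 members, TP73, MDM4, CDKN1A, up to 4 genes per pathway list with the smallest p, and the 3 most similar to TP63 and to TP53I11. Some results these rules call for are not reported here. BTG1, THBS1, LHX2, PDGFRA and the other marker genes are named outside that rule, after their values were seen. COP1, CDKN2A, TNFRSF10A, TNFRSF10B, TP53AIP1, SCO2, TRIAP1, FGFR3 and KRT15 were on the lists and are not analysed here. The fit was tested on simulated data for mid against early anagen with 12486 genes, 200 of them changed, in 10 simulations. Recovery was 15.8% at a 2-fold change, 64.9% at 4-fold and 80.6% at 8-fold, and false calls averaged 4.1 per simulation. Recovery was not broken down by abundance. The figures therefore cannot be applied to genes of low abundance, such as TP53I11 and SESN1.

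The alternatives were a replicate block (phase and sex), pseudocounts of 0.1 and 5, no filter or a filter of 5, leaving out each library, rescaling to a common total, and removal of a lowess trend with genomic span.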

Additional observations from a re-analysis of the deposited data

Results flagged for a closer look

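GADD45A was taken up because its pairs moved in opposite directions from early to mid anagen, by 0.21 on the log2 scale in the female pair and by -0.34 in the male pair. TP73 likewise moved by -0.12 in the female and by 0.15 in the male pair. Each pair holds 1 library per phase, so neither difference was tested.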

How the results depend on the processing

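Over all genes, 38 calls became 1782 with a replicate block (phase and sex), 18 with a pseudocount of 0.1, 0 without the filter (3843 at an unadjusted p under 0.05) and 648 after rescaling to a common total, and ranged from 0 to 733 when 1 library was left out. The 0 calls arose without the early female or early male library (2897 and 1445 at an unadjusted p under 0.05). Calls among the 9 genes went from 1 to 4 with the replicate block (SESN2, TP53I11, TP53INP1 and ZMAT3, all higher, with 7.34% of all genes called higher), to 3 after rescaling (TP53I11, TP53INP1 and ZMAT3, with 4.53%), to 0 with a pseudocount of 0.1 and to 0 without the filter (4 of 9 at an unadjusted p under 0.05 in each), and ranged from 0 to 1 when 1 library was left out. Of the 107 genes on the pathway lists, 0 calls became 22 with the replicate block (7 higher and 15 lower, with 14.3% of all genes called), of which 10 were cell cycle genes, all lower (6.93% of all genes), and SESN3 was another (adjusted p = 0.0142). Of the list genes, THBS1 and TP53INP2 were called higher without the mid female library. Without the mid male library only cell cycle genes were called, all lower. THBS1 was at 151 and 222 in April and 178 and 638 in October. Its phases overlap, so its call rests on the mid male library alone. Same-numbered libraries deviated together over genes (correlation 0.292), but nothing in the labels ties them to 1 animal, litter or day, and with 2 pairs the numbers are only a hint. Without 1 library, the lone library of its phase is assumed to vary like the other phase. Signs turned as follows, with the cause not tested. TP63 was at -0.13 with the span trend removed and ranged from -0.17 to 0.56 over left-out libraries. GADD45A was at 0.27 after rescaling and 0.14 with the span trend removed, with a range of -0.37 to 0.24. TP73 was at -0.068 with the span trend removed (range -0.35 to 0.39) and MDM4 at -0.0099 (range -0.020 to 0.18). DKK3 ranged from -0.21 to 0.49, MTFR1L from -0.11 to 0.57 and CMC4 from -0.082 to 0.61. MDM2, TP53I11, TP53INP1, SESN1, SESN2, BTG2 and ZMAT3 were higher at mid anagen in every alternative run. SESN1 was not tested under the filter of 5.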
